A study of Mus musculus with 2 samples.

Results

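Among the resident fibroblast-like cells of mouse tibialis anterior (TA) muscle, a small set of barcodes carried Tenm2, Angptl7 or both, and these are described here. A barcode marks the RNA of about 1 captured cell. A member had at least 500 detected genes, at least 1000 unique molecular identifiers (UMIs, each counting 1 captured transcript) and at most 10% mitochondrial UMIs. It also had at least 3 UMIs of Tenm2 and Angptl7 summed, at least 5 UMIs of Dcn, which encodes the collagen-binding proteoglycan decorin of fibroblasts, and no UMI of Itgb4, Cldn1, Pecam1, Ptprc or Tnmd. The rule found 140 members among 30891 barcodes, of which 84 came from the WT library and 56 from the KO library. Members were chosen by the UMI counts of those 8 genes, which are given only as a description. The comparison set, called other Dcn barcodes, met every term of the rule except that it had fewer than 3 UMIs of Tenm2 and Angptl7, and held 1066 barcodes (WT) and 850 barcodes (KO).

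Each library pooled 10 TA muscles from 5 male mice, digested for 1 h, and cells were sorted for viability alone by exclusion of propidium iodide before 10x Genomics 3' capture. The labels give genotypes WT and KO, mark both libraries ND and place both in batch 1. They do not spell out which gene, tissue or promoter the KO concerns, what ND stands for or how old the mice were. With 1 library per genotype there is no replicate of either, so no test between genotypes was made and a difference between the libraries cannot be told apart from a difference between the pools of mice. Of the barcodes, 9732 (WT) and 17651 (KO) passed the filters, and the KO library was the deeper, with a median of 4010.0 UMIs per barcode against 2688.5. Barcode sequences were shared by name between the libraries in 61 cases, none of them a member.

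Tenm2 encodes teneurin-2, a large transmembrane adhesion protein that binds latrophilin receptors at cell contacts, and Angptl7 encodes a secreted angiopoietin-like protein found in matrix-rich connective tissues. Peripheral nerves that run through muscle are wrapped in layers: endoneurial fibroblasts lie among the axons, a perineurial sheath of flattened, junction-forming cells encloses each fascicle, and epineurial fibroblasts lie outside it. Apod, which encodes the lipid-binding apolipoprotein D, and Gpc3, which encodes the heparan sulfate proteoglycan glypican-3, were the other markers of the cells named by these genes, and endoneurial fibroblasts are known for high Apod together with the transcription factors Sox9, Osr2 and Etv1.

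Levels are given as CPM, the UMIs of a gene per 1000000 UMIs summed over a group of barcodes in 1 library. Intervals are at 95%, cover counting error alone and treat UMIs and cells as independent, which cells of 1 library are not. A log2 ratio was computed after 5 CPM were added to both levels, while its interval comes from the counts alone, so at low counts the ratio need not lie at the centre of the interval. A gene was compared where it reached at least 20 CPM in 1 of the 2 groups and 50 UMIs over both. For members against others it was called where it was at least 2-fold apart in the same direction in both libraries.

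Igf1, the growth factor gene that the title of the series is about, was detected in every group. Its level in members with a Tenm2 UMI was 414 CPM (WT) and 284 CPM (KO), in members with Angptl7 alone 587 and 427 CPM, and in other Dcn barcodes 360.0 and 391.6 CPM. The library labelled KO was therefore lower by 0.42 on the log2 scale in members (interval -0.71 to -0.14) and higher by 0.12 in other Dcn barcodes (0.04 to 0.20), both less than 2-fold. The value in members depends on which barcodes are summed. Members in cluster 1, described below, had 475 (WT) and 438 CPM (KO). Outside that cluster, 1 WT member held 49 Igf1 UMIs, where the median of WT members was 2. A 3' tag can lie outside a deleted part of a gene, so these levels do not check the genotype labels.

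Members were rare in both libraries. They made up 0.863% of barcodes past the filters in WT (exact Clopper-Pearson interval 0.689% to 1.07%) and 0.317% in KO (0.240% to 0.412%). Of Dcn barcodes that met the other terms they were 7.30% (5.87% to 8.96%) and 6.18% (4.70% to 7.95%), and these intervals overlap. Barcodes with at least 3000 UMIs, 5036 (WT) and 11723 (KO), were also thinned to 3000 UMIs and then put through the rule, with shallower ones left out. Thinning also removes UMIs of the genes that must be at 0. The shares were then 4.98% and 10.1%, so in this smaller set of barcodes the order of the libraries turned. Members had a median of 5655.5 UMIs in WT (1458 to 16154) and 8305 in KO (1424 to 25259), close to the medians of 5507 and 8521 in other Dcn barcodes. Barcodes with at least 5 UMIs of Pecam1, an endothelial gene, served as a rough measure of free RNA. In WT 0 of 1339 reached 3 UMIs of Tenm2 and Angptl7, which allows a share of up to 0.224% (3 counts of the total). In KO 9 of 4838 did (0.186%). Barcodes that hold 2 cells were not removed and would count here too. In KO these barcodes held up to 35 Tenm2 and 417 Dcn UMIs, so that share cannot be read as free RNA alone.

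The 4 genes that name the cells were present, but they did not travel as 1 group. A Tenm2 UMI was carried by 49 of 84 members (WT) and 25 of 56 (KO), and Angptl7 alone by 35 and 31. Both genes were found together in 26 members of WT and 14 of KO. Apod was at 40496 CPM (WT) and 38896 CPM (KO) in members with both genes, 23952 and 25555 CPM in those with Tenm2 alone, and 9949 and 13375 CPM in those with Angptl7 alone, against 3087 and 3745 CPM in other Dcn barcodes. Gpc3 was at 3156 and 2474 CPM in members with both genes, 1962 and 2474 CPM in those with Tenm2 alone, and 568 and 747 CPM in those with Angptl7 alone, against 196 and 210 CPM. Because 100 of the 140 members carried only 1 of the 2 genes, the label holds for both-gene members and the set as a whole is called by its rule, Tenm2/Angptl7 members.

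**Figure D1:**
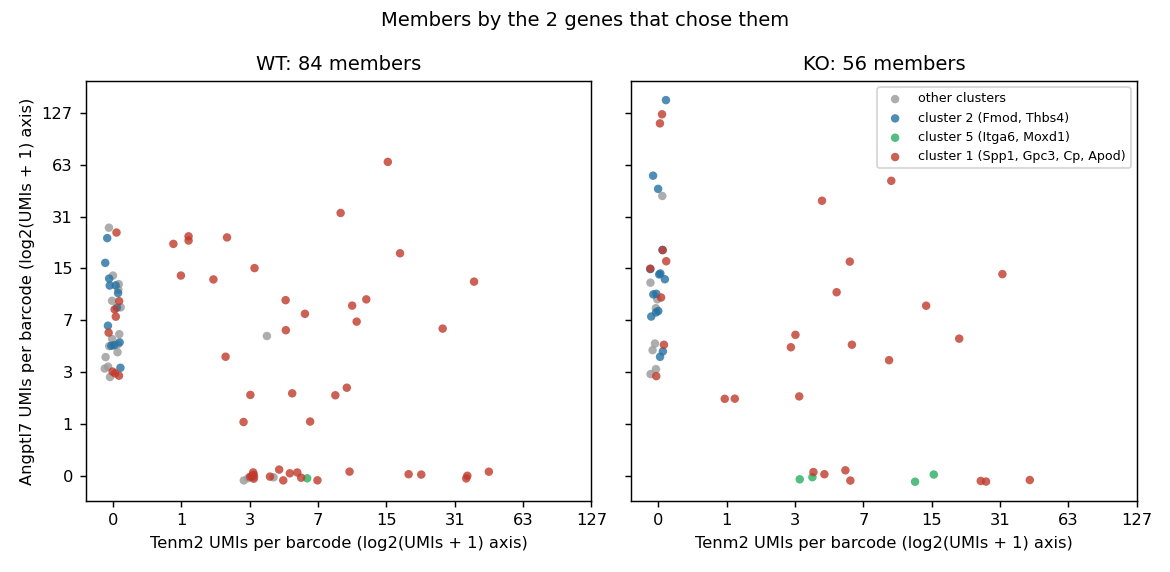
Tenm2 UMIs (horizontal) and Angptl7 UMIs (vertical) in each of the 84 WT and 56 KO members, on log2(UMIs + 1) axes with a small random offset so that points do not hide each other. Each point is 1 barcode coloured by its cluster; points with both genes are almost all in cluster 1, and those of cluster 2 lie on the Angptl7 axis.

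Each of the 2 genes was also abundant in a class that the rule leaves out, and these were different classes. Barcodes with at least 5 Dcn and 5 Itgb4 or Cldn1 UMIs and no Pecam1, Ptprc or Tnmd UMI, genes that mark the perineurial sheath, numbered 62 (WT) and 66 (KO) and held Tenm2 at 2160 CPM (WT) and 1343 CPM (KO) but Angptl7 at 3.88 and 17.1 CPM. Barcodes with at least 5 Dcn and 5 Tnmd UMIs and none of the other 4 genes, Tnmd encoding the tendon protein tenomodulin, numbered 424 and 252 and held Angptl7 at 2845 and 2434 CPM but Tenm2 at 9.70 and 2.49 CPM. Members with both genes held Tenm2 at 1217 and 849 CPM and Angptl7 at 1997 and 1270 CPM. Of all barcodes with at least 3 UMIs of Tenm2 and Angptl7 and at least 5 of Dcn, 538 (WT) and 397 (KO), the terms on Itgb4 and Cldn1 removed 132 and 128, and those on Pecam1, Ptprc and Tnmd removed a further 322 and 213 of the rest.

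The threshold of 3 UMIs did not fall at a gap. The 15 WT and 6 KO members with exactly 3 UMIs had Apod at 20339 and 13028 CPM and Gpc3 at 1565 and 1533 CPM. The 13 and 24 barcodes just outside, with 2 UMIs, had Apod at 10654 and 8162 CPM and Gpc3 at 643 and 633 CPM. Barcodes with none had Apod at 2751 and 3382 CPM.

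When members and other Dcn barcodes were clustered together without the genes of the rule, most members fell in 1 small cluster. Cluster 1 had 119 barcodes, led by Spp1, Cxcl2, Gpc3, Cp and Apod, and held 25 of 26 (WT) and 14 of 14 (KO) members with both genes, 18 of 23 and 7 of 11 with Tenm2 alone, and 8 of 35 and 8 of 31 with Angptl7 alone. It also held 18 WT and 21 KO barcodes that were not members, with Apod at 30906 and 24296 CPM and Gpc3 at 1840 and 1694 CPM. Members with Angptl7 alone were spread more widely, with 12 (WT) and 15 (KO) in cluster 2, led by Fmod, Thbs4, Kcnma1 and Col12a1. Cluster 5, led by Itga6, Moxd1 and Slc2a1, had 21 barcodes and held 1 WT and 4 KO members, all with Tenm2 alone. Among other Dcn barcodes, cluster 11, led by the endothelial and adipose genes Fabp4, Cd36 and Flt1, held 187 of the 850 in KO and none in WT, and cluster 15, led by F2rl1, Thbs1 and Ccl2, held 208 in KO and 1 in WT. Values of other Dcn barcodes in KO include these, and their part in the comparisons between libraries was not tested. The genes that lead a cluster helped to make it and are given as a description.

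The neighbours of each barcode gave the same picture without cluster borders. Of the 20 nearest neighbours of members with both genes, 78.5% (WT) and 81.8% (KO) were members. For members with Tenm2 alone the shares were 63.3% and 57.7%, for members with Angptl7 alone 27.9% and 32.4%, and for other Dcn barcodes 3.25% and 3.67%. Members were 6.81% of all barcodes clustered.

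**Figure D2:**
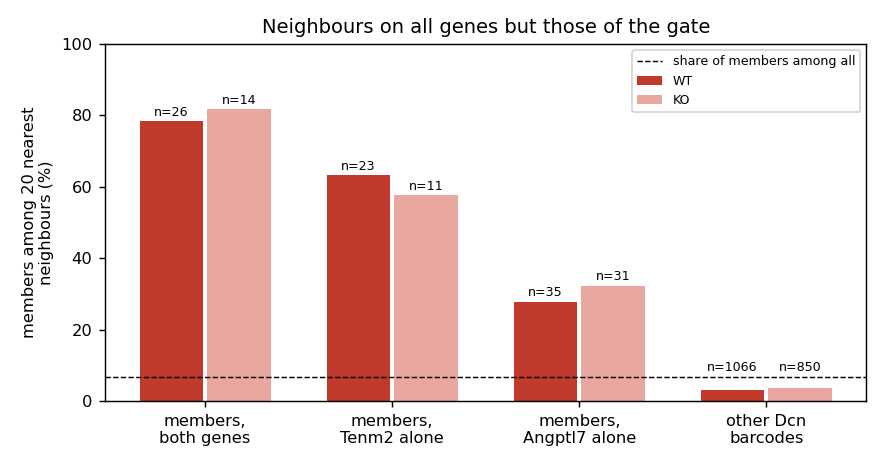
Bars give the share (%) of members among the 20 nearest neighbours, by kind of member and library, with the number of barcodes above each bar; the dashed line is the share of members among all barcodes, 6.81%. Bars for both genes, Tenm2 alone and Angptl7 alone stand above the line in both libraries, and those of other Dcn barcodes below it.

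Against other Dcn barcodes, all members together were called higher for 104 genes (1.59% of 6522 compared) and lower for 143 (2.19%). Members with a Tenm2 UMI alone as the set gave 172 genes higher (2.60% of 6609) and 358 lower (5.42%). That set is smaller, and a smaller set gives less precise ratios, so the 2 pairs of counts are not a measure of how distinct each set was. With barcodes thinned to 3000 UMIs and shallower ones left out, the remaining 66 WT and 50 KO members gave 53 genes higher and 162 lower.

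In what follows the members with a Tenm2 UMI, 49 WT and 25 KO, are described first and are called Tenm2 carriers.

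Tenm2 carriers expressed general fibroblast genes, although not all at the level of other Dcn barcodes. Of 11 genes of the general fibroblast list compared, none was called higher and 3 were called lower, Ly6a, Pdgfrb and Mfap5, against 2.60% and 5.42% of all genes compared. The medians of this list were -0.66 (WT) and -0.19 (KO) on the log2 scale. Pdgfra, the receptor that marks muscle fibro-adipogenic progenitors, was at 788 (WT) and 430 CPM (KO) against 720 and 359 CPM in other Dcn barcodes, Col1a2 at 3174 and 1529 against 2520.2 and 1209 CPM, and Lum at 2592 and 2496 against 1332 and 1193 CPM. Markers of Schwann cells summed to 1024 (WT) and 1126 CPM (KO) over 12 genes, against 819 and 697 CPM in other Dcn barcodes. Of 3 compared, 1 was called higher and none lower, against 2.60% and 5.42% of all genes compared. The list was detected only in part: Sox10 and Pllp had no UMI in Tenm2 carriers of either library, while Scn7a, a sodium channel gene also found in fibroblasts, was at 414 and 523 CPM against 371 and 341 CPM in other Dcn barcodes. Immune markers summed to 3.42 and 13.3 CPM over 9 genes and endothelial markers to 27.4 and 137 CPM over 9 genes, against 48.9 and 521 CPM of endothelial markers in other Dcn barcodes.

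The markers Apod and Gpc3 were high in most Tenm2 carriers. Those with Tenm2 alone that lay outside cluster 1, 5 in WT and 4 in KO, had Apod at 1140.1 and 1215 CPM, below other Dcn barcodes at 3087 and 3745 CPM. Apod had between 1 and 919 UMIs per barcode in WT, with a median of 147, and between 0 and 957 in KO, with a median of 215. The log2 ratio of Apod to other Dcn barcodes was 3.45 in WT (3.41 to 3.48) and 3.16 in KO (3.13 to 3.20). Gpc3 was detected in 93.9% and 92.0% of Tenm2 carriers, against 41.6% and 42.9% of other Dcn barcodes and 1.42% and 2.77% of barcodes with at least 5 Pecam1 UMIs, whose median depth was 3760 and 5804 UMIs against 5537 and 8478 in the carriers. With every barcode thinned to 3000 UMIs and shallower ones left out (7 WT and 3 KO carriers), the Gpc3 shares were 92.9% and 90.9% in Tenm2 carriers and 32.9% and 27.03% in other Dcn barcodes. Gpc3 was also common in the perineurial-type barcodes with Itgb4 or Cldn1, in 45 of 62 (WT) and 44 of 66 (KO). Its level there was 645 and 509 CPM, and that of Apod 2288 and 2517 CPM.

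Further genes set Tenm2 carriers apart by more than 8-fold in at least 1 library. Spp1, which encodes the secreted phosphoprotein osteopontin, was at 743 (WT) and 754 CPM (KO) against 10.0 and 21.2 CPM, yet was detected in only 55.1% and 56.0% of carriers. Cp, which encodes the copper-carrying ferroxidase ceruloplasmin, was at 3404 and 3103 CPM against 260 and 442 CPM. Cdh19, a cadherin gene known from the Schwann cell lineage and nerve-associated cells, was at 380 and 403 CPM against 32.8 and 40.2 CPM, a log2 ratio of 3.35 (3.19 to 3.88) and 3.18 (2.97 to 3.67). Both libraries agree within their intervals for Cdh19, and its detection was 71.4% and 56.0% of carriers against 1.12% and 2.71% of barcodes with Pecam1.

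Among genes of membrane signalling, Inpp4b, a phosphoinositide phosphatase gene, was at 473 (WT) and 359 CPM (KO) in Tenm2 carriers against 37.1 and 31.2 CPM. Piezo2, the mechanically gated channel gene of touch neurons and Merkel cells, was at 336 and 142 CPM against 24.7 and 18.6 CPM. Vit, which encodes the matrix protein vitrin, was at 805 and 572 CPM against 85.8 and 53.2 CPM, and Reln, which encodes the secreted guidance protein reelin, at 99.3 and 124 CPM against 10.0 and 8.08 CPM. Csmd1, at 760 and 1104 CPM against 65.9 and 155 CPM, was carried by fewer barcodes: 28.6% and 52.0% had a UMI, and 1 barcode gave 31.7% of its KO UMIs. The protocadherin gene Pcdh11x stood at 154 and 195 CPM against 5.33 and 4.04 CPM. All of these were higher in both libraries.

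**Figure D3:**
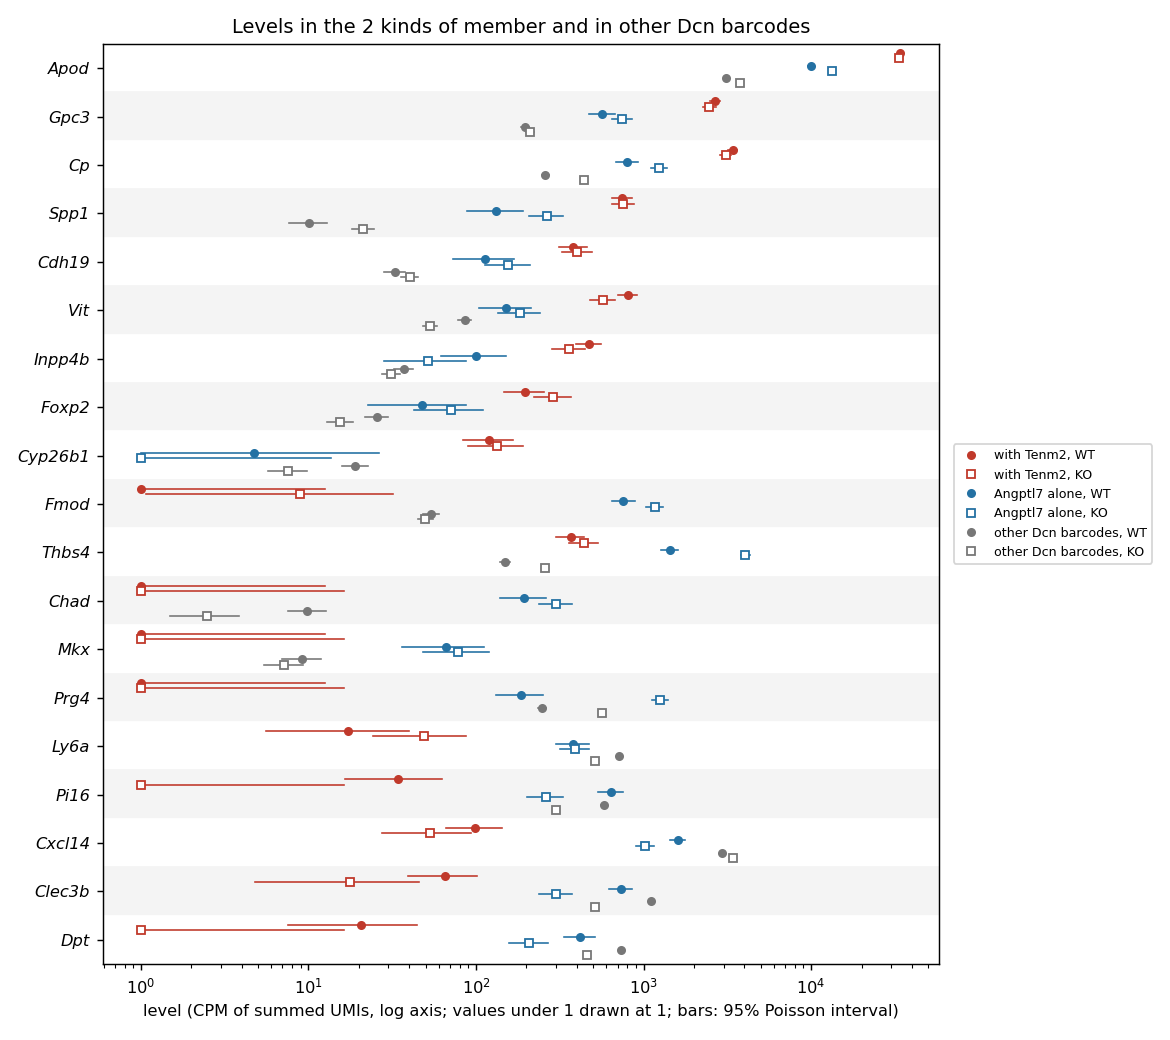
Levels of 19 genes (CPM on a log axis; values under 1 CPM drawn at 1) in Tenm2 carriers, members with Angptl7 alone and other Dcn barcodes, filled circles for WT and open squares for KO, with 95% Poisson intervals. Apod to Cyp26b1 are highest in Tenm2 carriers, Fmod, Thbs4, Chad and Mkx are highest in members with Angptl7 alone, and Ly6a to Dpt are lowest in Tenm2 carriers.

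Of the list of endoneurial fibroblast genes, 4 of 10 compared were called higher in Tenm2 carriers and none lower, against 2.60% and 5.42% of all genes compared. The transcription factor gene Osr2 was at 342 (WT) and 275 CPM (KO) against 92.4 and 60.4 CPM in other Dcn barcodes, a log2 ratio of 1.84 (1.57 to 2.20) and 2.10 (1.78 to 2.57). Etv1, an ETS-family factor, was at 205 and 155 CPM against 57.7 and 42.5 CPM, and Sox9 at 147 and 164 CPM against 54.9 and 56.2 CPM. Apod was the fourth. Abca8a, Abca8b, Cdkn1c and Cygb, which are also on the list, were within 2-fold in both libraries, Abca9 had log2 ratios of 0.92 and 0.80, and Wif1 had no UMI in a Tenm2 carrier, which allows up to 10.3 CPM in WT and 13.3 CPM in KO. With all members as the set, 3 of 10 were called higher and none lower, against 1.59% and 2.19% of all genes compared, and Sox9 was then 1.03 in WT and 0.82 in KO.

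The list of nerve injury and growth factor responsive genes was split. Gfra1, a GPI-anchored receptor for GDNF-family ligands, was at 452 (WT) and 457 CPM (KO) in Tenm2 carriers against 193 and 168 CPM, and Gfra2 at 65.1 and 53.2 CPM against 10.98 and 13.8 CPM. Ret, the kinase through which these receptors signal, went the other way, with 10.3 and 0 CPM against 38.4 and 26.7 CPM, and the ligand Ntf3 had no UMI against 38.4 and 23.1 CPM. Of the 4 genes of this list compared, 2 were called higher and 2 lower, against 2.60% and 5.42% of all genes compared. The neurotrophin receptor Ngfr lay under the 50 UMIs required, at 51.4 and 75.4 CPM against 3.39 and 2.87 CPM. Gdnf, Bdnf, Gap43 and Sox11, which are known to rise in injured nerve, had no UMI in Tenm2 carriers of either library. That allows up to 10.3 CPM in WT and 13.3 CPM in KO, so the zeros do not show that carriers lack these genes. Gdnf had no UMI in other Dcn barcodes of WT either.

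Some of these genes were as high in the perineurial-type barcodes with Itgb4 or Cldn1. There Etv1 was at 202.0 (WT) and 225 CPM (KO), Gfra1 at 540.0 and 446 CPM and Gfra2 at 62.2 and 61.0 CPM, while Osr2 was at 23.3 and 32.4 CPM and Sox9 at 42.7 and 97.2 CPM.

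The lists for the other nerve layers gave 1 gene higher. Of perineurial genes outside the rule, 1 of 4 compared was called higher and none lower, against 2.60% and 5.42% of all genes compared. It was the glucose transporter gene Slc2a1, at 41.1 (WT) and 195 CPM (KO) against 15.8 and 39.5 CPM. In KO that level came mainly from the 4 Tenm2 carriers outside cluster 1, which had Slc2a1 at 1019 CPM and the laminin receptor gene Itga6 at 1960 CPM. The perineurial-type barcodes with Itgb4 or Cldn1 had 964 and 1414 CPM of the same genes in KO. Of epineurial genes 6 of 9 were called lower and none higher, against 5.42% and 2.60% of all genes compared. Clec3b, which encodes tetranectin, was at 65.1 and 17.7 CPM against 1105 and 512 CPM, Adamts5, an aggrecan-cleaving protease gene, at 41.1 and 31.03 CPM against 828 and 455 CPM, and Tnxb at 89.0 and 62.1 CPM against 744 and 448 CPM.

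**Figure D4:**
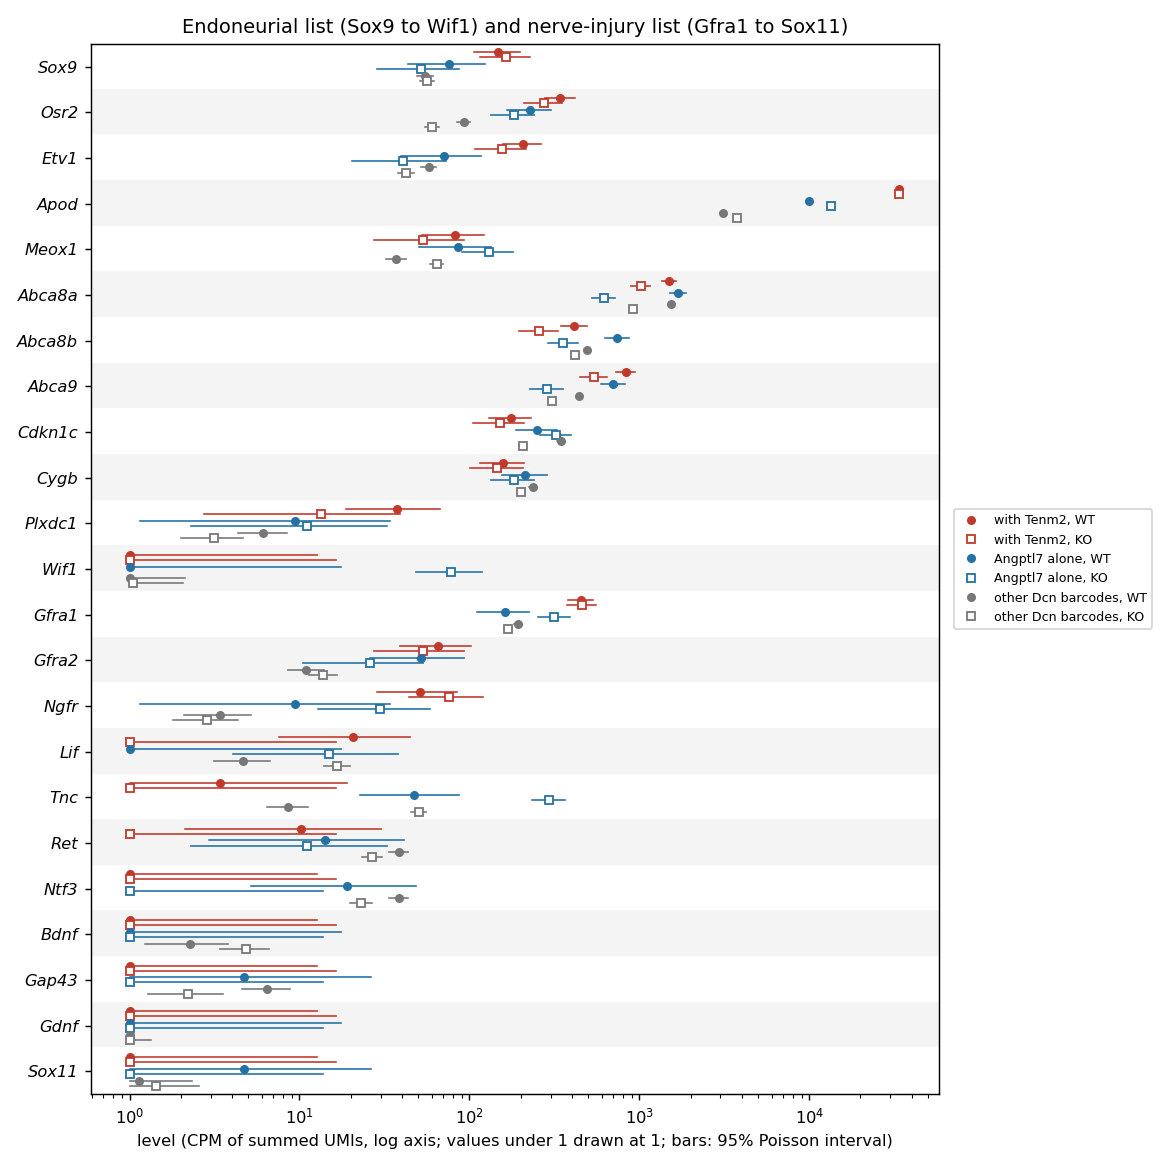
Levels (CPM on a log axis; values under 1 CPM drawn at 1) of 12 endoneurial genes (Sox9 to Wif1) and 11 nerve-injury genes (Gfra1 to Sox11), with symbols and 95% Poisson intervals by group and library. Tenm2 carriers lie to the right of other Dcn barcodes for Sox9, Osr2, Etv1, Apod, Gfra1, Gfra2 and Ngfr, and at or near the left edge for Ntf3, Bdnf, Gap43, Gdnf and Sox11.

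Guidance and adhesion genes were mixed. Of 22 axon guidance genes compared in Tenm2 carriers 4 were called higher and 5 lower, against 2.60% and 5.42% of all genes compared. Nrp2, the neuropilin-2 receptor of class 3 semaphorins, was at 226 (WT) and 222 CPM (KO) against 51.8 and 70.1 CPM, and the ephrin ligand gene Efnb2 at 103 and 213 CPM against 11.1 and 30.5 CPM. Robo1, a Slit receptor gene, was at 65.1 and 17.7 CPM against 284 and 182 CPM, Epha3 at 10.3 and 4.43 CPM against 82.5 and 86.4 CPM, and Sema3e had no UMI against 41.0 and 24.8 CPM. Of the partners of teneurins, Adgrl3, a latrophilin gene, was at 6.85 and 0 CPM against 71.7 and 60.5 CPM and Flrt2 at 10.3 and 26.6 CPM against 181 and 138 CPM, while the related Tenm3 was at 284 and 332 CPM against 151 and 198 CPM and was not called. Alcam, an immunoglobulin-family adhesion gene, was at 99.3 and 297 CPM against 22.3 and 46.4 CPM.

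Foxp2, a forkhead factor gene, was at 195 (WT) and 288 CPM (KO) against 25.7 and 15.5 CPM, and Nr2f2, a nuclear receptor gene, at 274 and 301 CPM against 66.9 and 84.9 CPM. Of 8 retinoid genes compared, 2 were called higher and 2 lower, and of 11 adipogenic and lipid handling genes 1 and 3, against 2.60% and 5.42% of all genes compared. Cyp26b1, which breaks down retinoic acid, was at 120 and 133 CPM against 19.1 and 7.56 CPM, and Rdh10, which makes retinaldehyde, at 257 and 328 CPM against 46.4 and 140 CPM. Aldh1a2 and Aldh1a3, which make retinoic acid from retinaldehyde, were lower, with 0 UMIs against 57.8 and 116 CPM for Aldh1a2 and 10.3 and 8.87 CPM against 32.9 and 45.8 CPM for Aldh1a3. Apoe, the lipid carrier, was at 1223 and 1600 CPM against 421 and 673 CPM, and Angptl4, an inhibitor of lipoprotein lipase, at 154 and 102 CPM against 32.9 and 27.2 CPM, whereas Lpl itself was at 257 and 248 CPM against 1044 and 884 CPM.

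The genes of the main muscle fibroblast states were low in Tenm2 carriers. Of the list for Dpp4/Pi16 progenitors, a state found in fascia and around vessels, 10 of 11 compared were called lower and none higher, against 5.42% and 2.60% of all genes compared. Ly6a, which encodes the progenitor marker SCA-1, was at 17.1 (WT) and 48.8 CPM (KO) against 714 and 516 CPM, and was detected in 10.2% and 12% of carriers against 67.3% and 59.1% of other Dcn barcodes. Pi16 was at 34.2 and 0 CPM against 579 and 299 CPM. Of the list for the Col15a1, Cxcl14 and Mme state 6 of 12 were lower and none higher, against the same shares of all genes. The chemokine gene Cxcl14 was at 99.3 and 53.2 CPM against 2932 and 3398 CPM, with 89.7% and 83.3% of those few UMIs from 1 barcode. Dpt, which encodes dermatopontin, was at 20.5 and 0 CPM against 734 and 459 CPM. Fst, which encodes the activin antagonist follistatin, had no UMI in carriers of either library against 142 and 253 CPM, and neither had Prg4, which encodes lubricin, nor the protease gene Pcsk6.

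Of 30 proteoglycan, elastic fibre and matricellular genes compared none was called higher in Tenm2 carriers and 12 were lower, and of 24 collagen chains 4 were higher and 9 lower, against 2.60% and 5.42% of all genes compared. Col28a1, a collagen gene known from peripheral nerve, was at 113 (WT) and 70.9 CPM (KO) against 10.98 and 31.03 CPM, and Col14a1 at 17.1 and 4.43 CPM against 292 and 167 CPM. Of 14 genes of the IGF axis none was higher and 3 were lower, against 2.60% and 5.42% of all genes compared: Igfbp5 at 610 and 199 CPM against 1264 and 658 CPM, Igfbp3 with no UMI against 35.2 and 129 CPM, and Pappa, whose product cleaves IGF-binding proteins, at 54.8 and 31.03 CPM against 115 and 205 CPM. Over all genes compared, the median log2 ratio was -0.14 in WT and -0.10 in KO.

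Members with Angptl7 alone, summed as a set, had different high genes, those of tendon and fascia, but only part of them carried these. Fmod had a UMI in 12 of 35 (WT) and 15 of 31 (KO). Fmod, which encodes the collagen-binding proteoglycan fibromodulin, was at 757 (WT) and 1166 CPM (KO) against 53.8 and 49.9 CPM in other Dcn barcodes and 0 and 8.87 CPM in Tenm2 carriers. Thbs4, a tendon thrombospondin gene, was at 1433 and 4049 CPM against 149 and 258 CPM, and Chad, which encodes chondroadherin, at 194 and 301 CPM against 9.85 and 2.48 CPM. Mkx, the tendon transcription factor gene, was at 66.2 and 78.0 CPM against 9.21 and 7.17 CPM and had no UMI in Tenm2 carriers. The Tnmd barcodes that the rule leaves out had Fmod at 6630 and 4779 CPM and Thbs4 at 14478 and 16700 CPM. Against all other barcodes with at least 5 Dcn UMIs, which include these, Fmod was lower in members, with log2 ratios of -2.46 and -0.78, and so was Thbs4, with -2.23 and -0.64. Summed over the 9 tenocyte genes other than Tnmd, the level was 2607 and 5575 CPM in members with Angptl7 alone, 534 and 572 CPM in Tenm2 carriers and 310 and 421 CPM in other Dcn barcodes.

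Angptl7-alone members were themselves a mixture. The 8 in each library that fell in cluster 1 had Apod at 26619 (WT) and 27470 CPM (KO), Gpc3 at 1842 and 1811 CPM and no Fmod UMI. The 27 and 23 outside it had Apod at 4343 and 5199 CPM, Gpc3 at 139 and 129 CPM, Fmod at 1011 and 1843 CPM, Ly6a at 499 and 610 CPM and Pi16 at 847 and 405 CPM. These were unlike each other too. The 12 WT members in cluster 2 held 160 Fmod, 1 Ly6a and 0 Pi16 UMIs, and the 15 in KO 314, 13 and 1. A further 4 (WT) and 3 (KO) were in cluster 3, led by Pi16, Sema3c and Cmah. Cluster 4, led by Ccn5 and Inmt, held 6 in WT. A gene seen in few UMIs can be missed in a barcode, so a member with Angptl7 alone is one in which Tenm2 was not detected at this depth. Wif1, an endoneurial gene that encodes a secreted WNT inhibitor, was found at 78.0 CPM in members of this kind in KO and had no UMI in WT.

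Set directly against each other, Tenm2 carriers were called higher than members with Angptl7 alone for 33 genes (2.05% of 1612 compared) and lower for 50 (3.10%). Besides the genes above, those higher included Bcl2, a survival gene, at 260 (WT) and 284 CPM (KO) against 89.9 and 78.0 CPM. Those lower included Cilp, a cartilage matrix gene, at 37.7 and 0 CPM against 430 and 249 CPM and Ccn2, a matricellular growth factor gene, at 24.0 and 8.87 CPM against 620 and 1036 CPM. Gpx3, which encodes a secreted glutathione peroxidase, was at 6.85 and 8.87 CPM against 1149.6 and 877 CPM, so its level over all members, 487 and 481 CPM, hid levels that were far apart.

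Between the libraries, Tenm2 carriers were 4.26% of Dcn barcodes in WT (3.17% to 5.59%) and 2.76% in KO (1.79% to 4.05%), and members with Angptl7 alone 3.04% (2.13% to 4.21%) and 3.42% (2.34% to 4.82%). Both pairs of intervals overlap. Tenm2 carriers were 58.3% of members in WT (47.1% to 69.0%) and 44.6% in KO (31.3% to 58.5%), which overlap too. Values over all members depend on that mix, so values of single genes are given for Tenm2 carriers where possible.

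Over all members 139 genes were at least 2-fold higher in KO with an interval clear of 0 (3.79% of 3664 compared) and 116 were lower (3.17%). In Tenm2 carriers the counts were 90 (4.52% of 1992) and 92 (4.62%), and in other Dcn barcodes 289 (4.04% of 7162) and 152 (2.12%). The share called higher was near that in other Dcn barcodes, while the share called lower was larger than there. Members summed to 503410 UMIs (WT) and 494832 (KO), against 6192036 and 7670937 in other Dcn barcodes. Ratios of the smaller set are less precise, so these shares are not a like comparison. Of the 139 higher genes 31 were also at least 2-fold higher in other Dcn barcodes, and of the 116 lower genes 12 were also lower there. With barcodes thinned to 3000 UMIs the counts in members were 61 and 70, of 1309 genes compared. In 39 of the 139 and 37 of the 116 a single barcode gave over 25% of the UMIs of the higher library. Without those genes the counts in members were 100 and 79, and the like removal was not made in other Dcn barcodes.

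Among the higher genes, several differed as much in other Dcn barcodes. Tnfrsf12a, the receptor of the cytokine TWEAK, was at 55.6 CPM in WT members and 327 CPM in KO members, a log2 ratio of 2.46 (1.97 to 3.19), with 1.90 in Tenm2 carriers and 2.70 in other Dcn barcodes. It was also among the leading genes of cluster 15, which held 208 KO barcodes, 1 WT barcode and no member. The part of that cluster in the value of 2.70 was not tested. Sdc4, which encodes the heparan sulfate proteoglycan syndecan-4, had 1.74 (1.41 to 2.13) in members, 1.17 in Tenm2 carriers and 1.93 in other Dcn barcodes, and Slc25a5, a mitochondrial ADP/ATP carrier gene, 1.69 (1.18 to 2.42), 0.56 (-0.38 to 1.59) and 1.93. Others differed by less than 2-fold in other Dcn barcodes. Myo1e, an unconventional myosin gene, had 2.08 (1.55 to 2.88) in members, 1.73 in Tenm2 carriers and 0.10 in other Dcn barcodes, and Hbegf, an EGF-family ligand gene, 2.91 (2.18 to 4.67), 2.13 and 0.65. Twist1, a mesenchymal transcription factor gene, had 1.95 (1.31 to 3.00), 1.45 and 0.57.

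Several genes differed in members and not in Tenm2 carriers. Thbs4 had a log2 ratio of KO to WT of 1.55 (1.40 to 1.73) in members but 0.26 (-0.15 to 0.67) in Tenm2 carriers. Kcnma1, a calcium-activated potassium channel gene, had 2.94 (2.39 to 3.94) in members and no UMI in Tenm2 carriers of either library, and Fbln1, which encodes fibulin-1, 1.82 (1.27 to 2.62) in members and 0.09 in Tenm2 carriers, with -1.54 in members of cluster 1. That last Fbln1 value rests on 3 UMIs in WT and 0 in KO. The clusters that hold members with Angptl7 alone differed in weight, since cluster 2 gave 31054 of their 211386 UMIs in WT and 94942 of 269237 in KO. Within cluster 2 members Thbs4 was at 8662 (WT) and 11154 CPM (KO), Kcnma1 at 515 and 1527 CPM, Fbln1 at 289.8 and 643 CPM, and Fmod at 5152 and 3307 CPM. Of the 7 genes of the fascial list compared, 4 were called higher in KO members and none lower, against 3.79% and 3.17% of all genes compared. The median of the list was 1.56 against 0.07 over all genes.

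In Tenm2 carriers, 81 of the 139 genes higher in KO members and 71 of the 116 lower were at least 2-fold apart in the same direction. Those counts applied no floor or interval to the carriers. With both applied, 31 of the 139 and 42 of the 116 were called in carriers too. Carriers are part of the members, with 292024 of their 503410 UMIs in WT and 225595 of 494832 in KO. The agreement is therefore partly built in. Col1a1, the collagen I chain gene, was at 2211 CPM in WT members and 744 CPM in KO members and fell by 1.57 on the log2 scale (interval -1.75 to -1.40), with -1.59 in Tenm2 carriers and -0.997 in other Dcn barcodes. Of 19 collagen chains compared in members 4 were called lower and 1 higher, against 3.17% and 3.79% of all genes compared. Tnfaip6, which encodes a hyaluronan-binding protein of inflamed matrix, was at 948 and 277 CPM and fell by 1.76 (-2.06 to -1.50), with -1.81 in Tenm2 carriers and -0.30 in other Dcn barcodes. Nt5e, which encodes the ectonucleotidase CD73, was at 197 and 64.7 CPM, a ratio of -1.53 (-2.23 to -1.02), with -2.09 in Tenm2 carriers and 0.45 in other Dcn barcodes. The glutamate receptor gene Gria3 had -1.55, -1.54 and -0.67 in the same groups. The difference between members and other Dcn barcodes in these ratios was not tested.

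**Figure D5:**
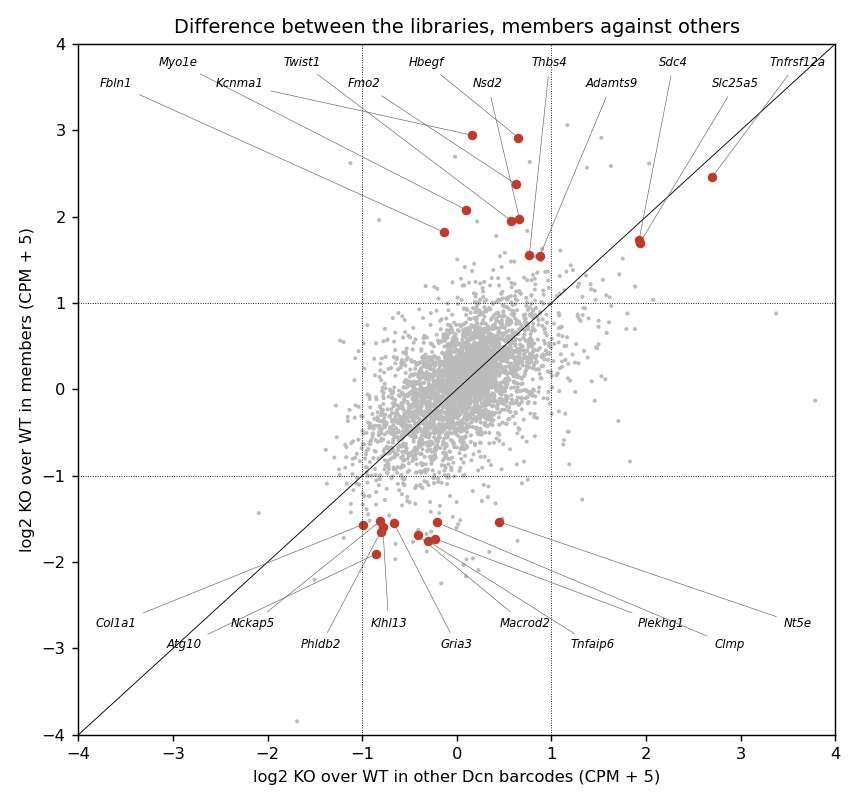
Log2 ratio of KO to WT in members (vertical) against the same ratio in other Dcn barcodes (horizontal) for 3638 genes compared in both; 4 genes lie outside the axes. Named genes (red, 23) are among the largest differences in members by the rule; dotted lines mark 2-fold and the diagonal an equal difference, on which Tnfrsf12a, Sdc4 and Slc25a5 lie closest.

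The markers Apod, Gpc3, Cdh19 and Spp1 were nearly level between the libraries in members. Their log2 ratios of KO to WT were -0.07, -0.22, 0.00 and 0.00. Of the 10 endoneurial genes compared none was called in either direction, against 3.79% higher and 3.17% lower of all genes compared. The median of the list was -0.28 in members and -0.32 in other Dcn barcodes.

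UMIs of other cells moved with some of these values. Markers of muscle fibres, 10 of 10 detected, summed to 2098 CPM in WT members and 509 CPM in KO members, against 750.0 and 766 CPM in other Dcn barcodes. In KO members 9 of 9 compared were called lower, against 3.17% of all genes compared. In WT 838 of the 1056 UMIs came from 2 members in cluster 9, led by muscle fibre genes such as Myh4. Without these 2 the sums were 445 and 509 CPM and none of 3 compared was called lower, while the counts over all genes were 139 higher and 101 lower in KO. Erythroid genes summed to 7358 and 64.7 CPM in members, and 1 WT member, a Tenm2 carrier with 7619 UMIs, had 47.96% of its UMIs from these genes. Endothelial markers summed to 23.8 and 154 CPM. Their part in the differences between the libraries was not tested. For all members, Cxcl2, a neutrophil-attracting chemokine gene, was called higher than in other Dcn barcodes, yet it was at 723 CPM (WT) and 22.2 CPM (KO) in Tenm2 carriers and 0 and 1066 CPM in members with Angptl7 alone, where 1 KO barcode held 215 UMIs.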

How the data were processed

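Single-cell RNA was measured in 1 library labelled WT and 1 labelled KO. The authors deposited raw UMI counts per gene and barcode for 33696 genes, with no normalisation, made with Cell Ranger 9.0.0 per the submitters' processing notes. In the file headers the version is 8.0.0 for WT and 9.0.0 for KO, and any effect of that difference was not tested. The notes name build mm10, and no coordinates are given. Depth was 38014703 UMIs in 11360 barcodes (WT) and 101570863 UMIs in 19531 barcodes (KO), which bounds a level of 0 in members at 5.96 and 6.06 CPM (3 UMIs).

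The members, gene lists (18 of markers, 25 of pathways) and rules were chosen with earlier results of these data known, and nothing here is independent support for them. UMIs were summed per group and library and scaled to CPM. Log2 ratios used a pseudocount of 5 CPM. Genes needed 20 CPM in 1 of the 2 groups compared and 50 UMIs summed over both. For members against others this held in each library. Intervals are exact: Clopper-Pearson for a share, Poisson for a level, and conditional binomial for a ratio of 2 levels. With 1 library per genotype no p-value was computed. Clustering used counts scaled to 10000 per cell, 2000 variable genes per library, 30 principal components, 20 neighbours and the Leiden method at resolution 1 (scanpy 1.11.5, leidenalg 0.10.2), without the genes of the rule and without integration. The steps were tested on simulated data.

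Named genes were the 15 highest and 15 lowest against other Dcn barcodes by the smaller ratio of the 2 libraries, with a UMI in at least 10% of each library's barcodes on the higher side, leaving out the rule's genes and mitochondrial, ribosomal, haemoglobin, sex-linked and predicted genes. They also included the 12 highest and 12 lowest between libraries, at 50 CPM or more with no barcode over 25% of UMIs, up to 4 genes per list, and all nerve genes. Col14a1, Bcl2, Cilp, Ccn2, Gpx3, Nr2f2, Csmd1 and Foxp2 were named by the same rule applied to Tenm2 carriers, added after their values were seen. Moxd1, Pllp and Sox10 are named as markers of their lists. A few genes that these rules select are not reported here.

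Doublets were not removed, since the rule has no such term. Scrublet with its automatic threshold marked 132 of 9732 barcodes (1.36%) in WT and 1 of 17651 in KO, so it did not work in KO. A removal of the highest scores up to the expected rate was added. Alternatives to the gate, filters, comparison set, weighting, thinning, pseudocount, floors and scaling (TMM factors from edgeR 4.0.16 on the summed counts) were computed, and the closing section gives their effect.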

Additional observations from a re-analysis of the deposited data

Results flagged for a closer look

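For 6 genes the members and the other Dcn barcodes of the same libraries differed in opposite directions between KO and WT, in each case with 1 library per genotype, and the difference between the 2 sets was not tested. The haemoglobin genes had log2 ratios of KO to WT in members of -6.69 (Hba-a1), -5.74 (Hba-a2), -7.00 (Hbb-bs) and -6.01 (Hbb-bt), against 4.80, 4.14, 5.62 and 3.79 in other Dcn barcodes. In WT members 1 barcode gave 97.7%, 99.0%, 99.0% and 99.1% of the UMIs of these genes. Sfrp4, which encodes a secreted WNT modulator, had 2.62 in members, from 6 UMIs in WT and 49 in KO of which 57.1% were in 1 barcode, against -1.12 in other Dcn barcodes. Tfpi2, which encodes a protease inhibitor, had -1.28 in members, from 80 and 31 UMIs of which 52.5% and 45.2% were in 1 barcode, against 1.33 in other Dcn barcodes.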

How the results depend on the processing

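No paired analysis was possible because each genotype has 1 library. The counts of genes at least 2-fold higher and lower in members than in other Dcn barcodes were 104 and 143, and those higher and lower in KO members 139 and 116. With barcodes thinned to 3000 UMIs the first count was 53, and the KO counts were 61 and 70, with 1309 in place of 3664 genes compared. With a pseudocount of 20 CPM the 4 counts were 61, 75, 79 and 75, and with a floor of 50 CPM and 100 UMIs 63, 90, 53 and 63. With a floor of 10 UMIs alone the count lower than in other Dcn barcodes was 225 and the KO counts were 379 and 396. With Tenm2 carriers only, chosen after the data were seen, the 4 counts were 172, 358, 90 and 92, and with members of cluster 1 only, also chosen after, 179, 388, 100 and 69. Under the other alternatives, the removal of doublet scores, of the haemoglobin-rich member and of the 2 muscle fibre-rich members included, each count stayed within 1.5 times. A like count need not be the same genes: with all other barcodes with at least 5 Dcn UMIs as the comparison set, 65 of the 104 higher and 59 of the 143 lower genes were shared. The KO lists changed as well. With a gate of 2 UMIs, 92 of the 139 higher and 70 of the 116 lower genes were shared. After thinning to 3000 UMIs, 25 of the 139 and 33 of the 116 were shared.

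The share of barcodes past the filters was 0.453% in KO with a gate of 2 UMIs, 0.647% in WT with a gate of 5 UMIs, 1.13% in WT under the strict filter, and 1.07% (WT) and 0.717% (KO) after thinning. The share of Dcn barcodes was 8.83% in KO with a gate of 2 UMIs, 5.48% in WT with a gate of 5, 7.96% in KO with at least 10 Dcn UMIs, and 4.98% (WT) and 10.1% (KO) after thinning. Thinning left out barcodes with fewer than 3000 UMIs.

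Directions reversed for a few named genes, where the groups compared had other barcodes by construction. Against all other barcodes with at least 5 Dcn UMIs, the log2 ratios in WT and KO were -2.46 and -0.78 for Fmod, -2.23 and -0.64 for Thbs4, and -1.54 and -0.61 for Mkx, and the WT ratio was -1.71 for Chad. With Tenm2 carriers only they were -3.56 and -1.99 for Fmod, -1.57 and -0.58 for Chad and -1.51 and -1.28 for Mkx, and the KO ratio was -2.03 for Cxcl2. With members of cluster 1 only they were -3.56 and -2.23 for Fmod, -1.57 and -0.58 for Chad and -1.51 and -1.28 for Mkx. The ratio of KO to WT was -1.06 for Ccn2 in Tenm2 carriers, and -0.68 for Ccn2 and -1.54 for Fbln1 in members of cluster 1. Several of these reversed values rest on few UMIs or none. Fbln1 had 3 UMIs in WT and 0 in KO members of cluster 1. Ccn2 in Tenm2 carriers lay under the 50 UMIs required. Chad and Mkx had no UMI in Tenm2 carriers of either library. Over all values of named genes under the alternatives, 23 reversed and 95 kept their direction but fell below 2-fold. Members with a Tenm2 UMI numbered 49 and 25, so a gene with no UMI in them may still be present at up to 10.3 CPM (WT) or 13.3 CPM (KO).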

Other observations

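Immediate early and chemokine genes varied within the members. Nr4a1, an immediate early nuclear receptor gene, was at 1562 CPM (WT) and 1255 CPM (KO) in Tenm2 carriers, 596 and 1099 CPM in members with Angptl7 alone, and 371 and 555 CPM in other Dcn barcodes. The interferon-induced chemokine gene Cxcl10 was at 240 and 279 CPM in Tenm2 carriers and 46.8 and 19.2 CPM in other Dcn barcodes, and its level in members with Angptl7 alone was 251 CPM in WT and 7.43 CPM in KO. In Tenm2 carriers 1 barcode gave 58.6% (WT) and 50.8% (KO) of its UMIs. Ccl2, a monocyte-attracting chemokine gene, was at 1065 CPM in WT and 137 CPM in KO Tenm2 carriers, against 51.0 and 769 CPM in other Dcn barcodes. Of 25 dissociation stress genes compared in Tenm2 carriers 1 was called higher and 2 lower, against 2.60% and 5.42% of all genes compared.

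Of 11 solute carrier genes compared in Tenm2 carriers 3 were called higher and 1 lower, and of 8 channel genes 1 and 1, against 2.60% and 5.42% of all genes compared. Slc1a3, a glutamate transporter gene, was at 158 (WT) and 270 CPM (KO) in Tenm2 carriers against 30.5 and 80.2 CPM in other Dcn barcodes, and the potassium channel gene Kcnk2 at 110 and 97.5 CPM against 51.2 and 22.9 CPM. Of 8 heparan sulfate proteoglycan genes 2 were called higher and none lower, against the same shares of all genes. Sdc3, a syndecan gene, was at 47.9 and 84.2 CPM against 11.5 and 17.99 CPM.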
